A study of Mus musculus with 2 samples.

Results

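Sox7, Sox17 and Sox18 are the 3 genes of the SoxF group of transcription factors, and they were followed here by name as 3 of the 24543 genes counted in single cells of the mouse embryo. At least 1 of the 3 was detected in 492 of 678 cells of replicate 1 and in 495 of 1461 cells of replicate 2, which together are 46.1% of the cells. SoxF proteins bind DNA through a high mobility group domain and are known as regulators of endothelial identity and arterial and lymphatic vessel formation. In the embryonic aorta, some arterial endothelial cells become hemogenic and give rise to blood progenitors, a step called the endothelial to hematopoietic transition (EHT), in which Runx1, Gfi1 and Gfi1b act and the endothelial program is lost. Sox17 is best known from arterial and hemogenic endothelium, Sox18 from lymphatic specification, and Sox7 from early vascular and hemogenic precursors.

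The study asked how the stress-response gene Nupr1 acts in this transition. Cells from the caudal portion of E10 embryos were labelled by genotype with hashtag oligos carried on streptavidin. Those carrying CD31 and CD44 were sorted and counted by 10x Genomics single-cell RNA sequencing in 2 replicate pools. The cKO embryos were Vec-Cre;Nupr1 fl/fl, in which the Cdh5 promoter drives Cre so that the deletion begins in endothelial cells and is passed on to the blood cells they form. The controls were littermates, Nupr1 fl/fl or Nupr1 fl/+, and no group was treated. Each pool held cells of both genotypes, so a replicate here is 1 pool and not 1 embryo. The number of embryos in a pool is not given in the sources used here, and the p-values below measure only the spread between these pools.

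The pools held 334 control and 344 cKO cells in replicate 1, and 748 control and 713 cKO cells in replicate 2. Median unique transcript counts (UMIs) per cell ran from 38416.5 to 62116 over the genotypes and replicates. No cell barcode was shared between the pools. Xist was detected in 94.6% of control and 3.49% of cKO cells of replicate 1, and Y-linked genes in 1.80% and 90.7%, so sex and genotype cannot be told apart in that pool. In replicate 2 Xist was found in 98.7% of control and 57.6% of cKO cells, and Y-linked genes in 0% of both. Nupr1, the targeted gene, stood at 60.9 and 43.8 CPM (UMIs per 1000000 UMIs of a sum of cells) in the control cells of the Gfi1 and Neurl3 gate and at 4.00 and 3.99 CPM in the cKO cells, 12.7-fold lower by the fit (log2 difference -3.66 ± 1.00 SE). The ranges did not overlap, but the edgeR quasi-likelihood test did not pass adjustment over all genes (adjusted p = 0.834).

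Cells were grouped by the transcripts they held. The arterial gate needed at least 2 UMIs of Gja5, a gap junction gene of arteries. The other gates needed at least 1 UMI of each gene of a pair, which was Kitl with Esm1 for the vascular plexus, Nr2f2 with Aplnr for veins, Gfi1 with Neurl3 for EHT and Ptprc with Myb for progenitors. A total of 395 cells met the arterial gate alone, 82 the venous, 80 the EHT and 362 the progenitor gate, while only 19 met the plexus gate alone. A further 269 cells met several gates, among them 73 arterial and plexus, 71 arterial and EHT, and 83 EHT and progenitor cells, and these combinations were kept as groups of their own after the cell numbers were seen. UMIs were summed within each group, genotype and replicate, which gave 4 sums per group, and a level below is the CPM of a sum.

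The gates held the markers of their names, with other markers beside them. The arterial gate had 3212 to 3386 CPM of the 7 arterial markers and 3197 to 3736 CPM of the 6 endothelial markers such as Cdh5 and Kdr. The EHT gate had 541 to 843 CPM of the endothelial markers and 80.3 to 115 CPM of the arterial ones, and 98.8% of its cells held Runx1. Its sums also held 122 to 3385 CPM of the 6 granulocyte and monocyte markers, with Mpo in 53.8% of cells, 65.0 to 1549 CPM of the 6 megakaryocyte markers, with Pf4 in 72.5%, and 35.9 to 682 CPM of the 8 mesenchymal markers. The progenitor gate held 1780 to 4020 CPM of the 8 macrophage markers and Csf1r in 70.2% of cells. It also held 935 to 3231 CPM of the granulocyte and monocyte markers, with Mpo in 66.6% and Prtn3 in 90.3% of cells. The part of these markers in the results below was not tested except where EHT cells without Mpo are named.

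The SoxF genes lie apart in the genome. In the GENCODE M21 annotation of GRCm38, Sox7 spans chr14:63943673-63950732 on the plus strand in 2 exons. Sox17 lies on the minus strand at chr1:4490931-4497354 with 8 transcripts of 1 to 5 exons, and an annotated gene on the opposite strand, Gm37587, overlaps it. Sox18 lies on the minus strand at chr2:181669836-181671640 in 2 exons. Over all cells, 1815 UMIs of Sox7 came from 575 cells, 7409 of Sox17 from 749 cells and 6159 of Sox18 from 876 cells.

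All 3 SoxF genes were high in the Gja5 cells, lower in the EHT gate and close to absent in the progenitor gate. Sox17 was 11.5-fold and Sox7 10.9-fold lower in the EHT than in the arterial gate, and Sox18 5.06-fold lower. With all UMIs counted, Sox18 was found in 73.8% of EHT cells, against 32.5% for Sox17 and 20.0% for Sox7. After each cell was thinned to 6000 UMIs, the mean shares over the EHT sums were 21.8% for Sox18, 16.2% for Sox17 and 4.89% for Sox7. With cells of several gates assigned by priority, Sox18 did not have the smallest fall.

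**Figure D1:**
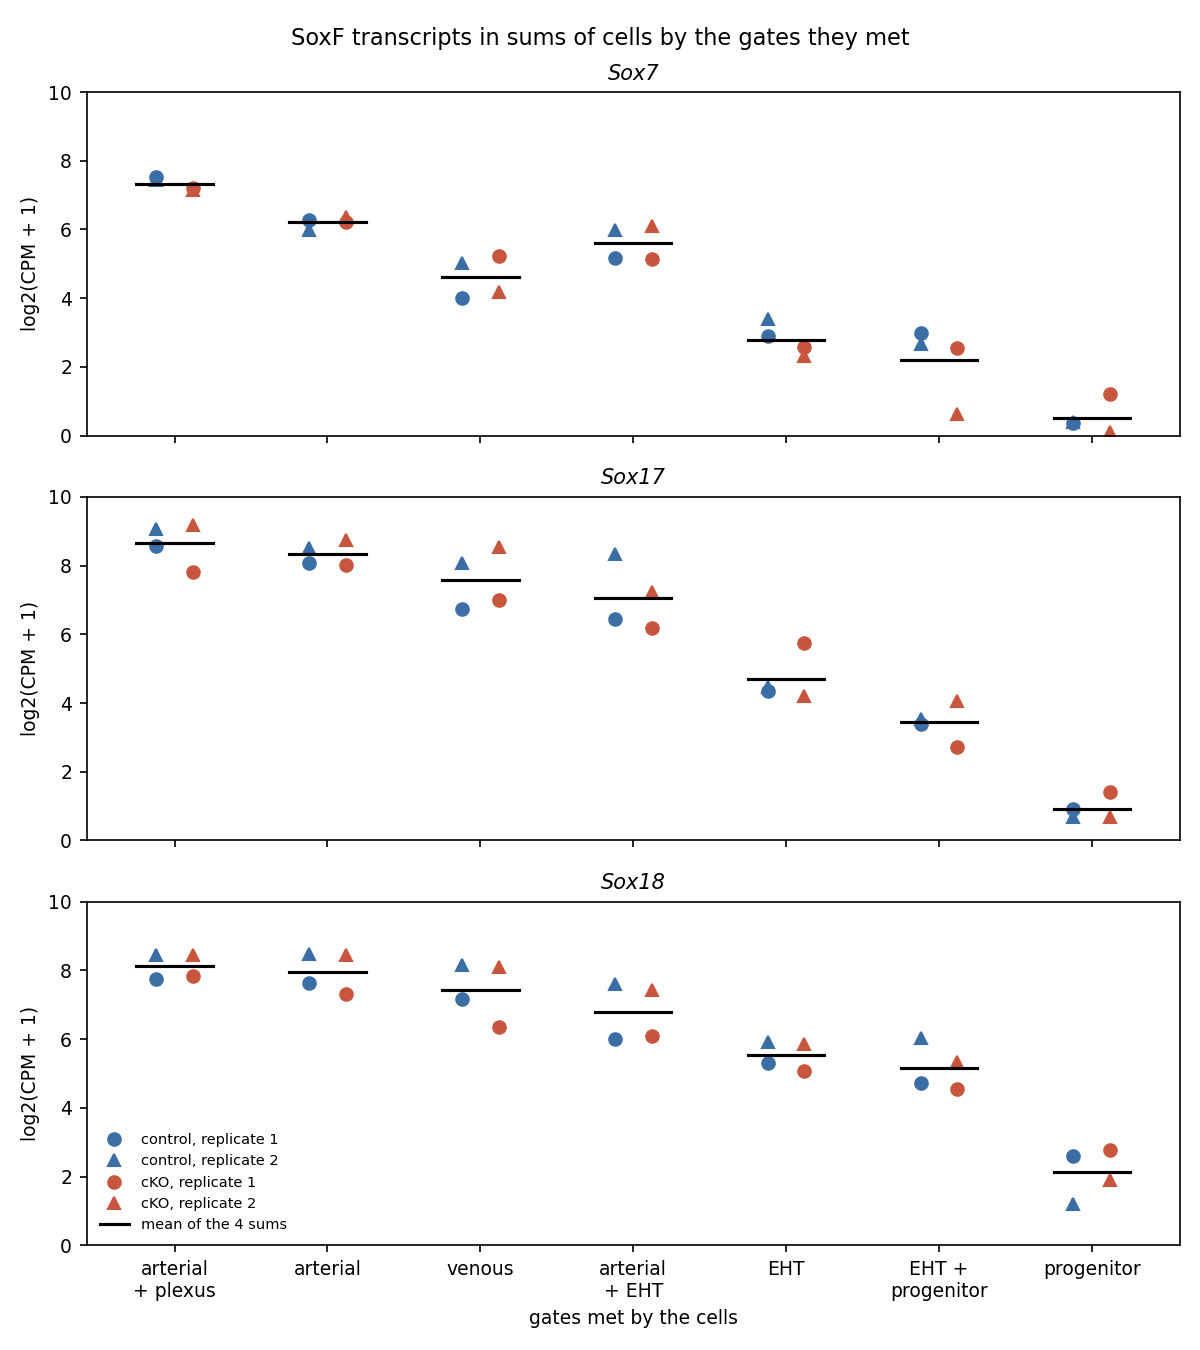
Levels of Sox7, Sox17 and Sox18 as log2(CPM + 1) in each sum of cells, by gate or combination of gates. Points are the 4 sums (colour for genotype, shape for replicate) and black lines their mean. All 3 genes run from high in arterial and plexus cells to low in the progenitor gate, and the 4 EHT sums lie below the 4 arterial sums in each panel.

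Sox17, an arterial and hemogenic SoxF factor, stood in arterial cells at 269 CPM in control replicate 1, 365 in control replicate 2, 257 in cKO replicate 1 and 426 in cKO replicate 2. In the EHT gate its levels were 19.2, 21.2, 53.0 and 17.3 CPM in the same order. The highest EHT sum was therefore far below the lowest arterial sum. The difference was -3.52 ± 0.49 on the log2 scale, 11.5-fold lower (edgeR quasi-likelihood test with Benjamini-Hochberg adjustment, adjusted p = 0.000139, n = 4 sums against 4). In this comparison 39.9% of all genes tested passed the threshold, 19.5% of all genes as higher and 20.3% as lower, so a call alone does not set the SoxF genes apart.

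Sox7, the SoxF gene known from early vascular precursors, had arterial levels of 76.7, 62.1, 73.5 and 81.2 CPM, in the order control 1, control 2, cKO 1 and cKO 2. Its EHT levels were 6.41, 9.49, 5.00 and 3.99 CPM. These groups did not overlap either, and the log2 difference was -3.45 ± 0.39, which is 10.9-fold lower (edgeR, adjusted p = 1.48e-05). For Sox18, the lymphatic SoxF gene, the arterial sums read 196, 357, 158 and 346 CPM and the EHT sums 38.5, 59.1, 33.0 and 57.1 CPM. The lowest arterial sum again exceeded the highest EHT sum, and the log2 difference of -2.34 ± 0.52 passed the test (edgeR, adjusted p = 0.00413).

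When cells in several gates were assigned by priority to the latest gate they met, the EHT group took in cells that also held Gja5. The differences shrank to -2.01 for Sox17 (edgeR, adjusted p = 0.00409) and -1.53 for Sox7 (edgeR, adjusted p = 0.00389). For Sox18 the value was -1.69 (edgeR, adjusted p = 0.0128), and each gene still passed. In this setting Sox18 no longer had the smallest fall. Over all alternatives the highest adjusted p was 0.00717 for Sox17, 0.00389 for Sox7 and 0.0363 for Sox18.

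Cells that met the arterial and the EHT gate together lay between these groups. Sox17 stood there at 86.4, 324, 72.0 and 150 CPM, a wide range that overlapped the arterial sums. Sox7 read 35.3, 62.9, 34.3 and 67.7 CPM and Sox18 63.5, 192, 66.8 and 173 CPM, with overlap as well. In this comparison 11.4% of genes passed, 4.92% as higher and 6.51% as lower, but none of the 3 SoxF genes did. The log2 differences from arterial cells were -1.14 for Sox17 (95% interval -2.20 to -0.09, edgeR adjusted p = 0.155), -0.59 for Sox7 (-1.25 to 0.07, adjusted p = 0.253) and -1.12 for Sox18 (-2.24 to -0.002, adjusted p = 0.192). With the replicate as a block, Sox17 (-1.23, adjusted p = 0.0246) and Sox18 (-1.16, adjusted p = 0.0175) passed in edgeR, and the genes called rose from 1196 to 2503. Over the alternatives the adjusted p ran from 5.73e-06 to 0.564 for Sox17 and from 1.49e-05 to 0.489 for Sox18.

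From these doubly gated cells to the EHT gate alone, Sox7 fell by 2.91 on the log2 scale (SE 0.43, edgeR adjusted p = 0.000182, 7.50-fold lower), where 8.56% of genes passed, 2.96% as higher and 5.60% as lower. Sox17 was 5.39-fold lower (log2 -2.43 ± 0.57, edgeR adjusted p = 0.0131), but that call was lost without control replicate 1 (-2.74, adjusted p = 0.0616), control replicate 2 (-1.84, adjusted p = 0.353) or cKO replicate 2 (-1.80, adjusted p = 0.133), and its adjusted p ran from 1.01e-20 to 0.353 over the alternatives. Sox18 differed by -1.27 (95% interval -2.47 to -0.07) and did not pass (edgeR, adjusted p = 0.196). It passed with the replicate block (-1.26, adjusted p = 0.0355, range over the alternatives 3.72e-06 to 0.664), under which the genes called rose from 896 to 1738. The 4 EHT sums of each SoxF gene lay below its 4 sums in arterial and EHT cells.

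All 3 genes fell further in the progenitor gate. Sox18 read 5.12, 1.32, 5.89 and 2.76 CPM there, all below its EHT sums, and was 13.9-fold lower (log2 -3.80 ± 0.62, edgeR adjusted p = 0.00124), in a comparison where 20.9% of genes passed, 9.17% as higher and 11.8% as lower. Sox17 stood at 0.903, 0.610, 1.64 and 0.604 CPM, 29.9-fold lower (log2 -4.90 ± 0.66, edgeR adjusted p = 0.000268). Sox7 read 0.301, 0.305, 1.31 and 0.0863 CPM, 15.1-fold lower (log2 -3.92 ± 0.62, edgeR adjusted p = 0.000538). The 4 progenitor sums together held only 21 UMIs of Sox17 and 9 of Sox7. Levels this near background do not fix the size of the fold of either gene. The mean level in the macrophage gate (Csf1r with Mrc1), a cell type that should lack these genes, was 0.427 CPM for Sox7, 0.444 for Sox17 and 0.380 for Sox18. Each Sox17 and each Sox18 sum of the progenitor gate lay above the macrophage mean of its gene, and 1 Sox7 sum did. The highest macrophage sum of Sox17 lay above 2 of its 4 progenitor sums. The replicate block raised the genes called in this comparison from 2292 to 3655, and the highest adjusted p over the alternatives was 0.0220 for Sox17, 0.0407 for Sox7 and 0.0437 for Sox18.

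Cells that met the EHT and progenitor gates together did not differ past the threshold from the EHT gate in any SoxF gene. Their Sox18 sums were 25.4, 65.1, 22.4 and 39.8 CPM, overlapping the EHT sums, and the difference was -0.37 (95% interval -1.59 to 0.85, edgeR adjusted p = 1). Sox7 read 6.87, 5.34, 4.91 and 0.545 CPM and also overlapped. Sox17 read 9.51, 10.7, 5.61 and 15.8 CPM, each below the lowest EHT sum, but the difference of -1.31 (-2.70 to 0.08) did not pass (edgeR, adjusted p = 1). No gene was called here by edgeR (0.00% of those tested), 483 had an unadjusted p under 0.05, and DESeq2 called 30.

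Between these cells and the progenitor gate alone, 20.2% of genes passed, 999 (9.55%) as higher and 1119 (10.7%) as lower, a split that became 714 and 1411 when only library size was used for scaling. Sox18 was 10.3-fold lower in the progenitor gate (log2 -3.37 ± 0.65, edgeR adjusted p = 0.00136), Sox17 11.3-fold (-3.50 ± 0.82, adjusted p = 0.00546) and Sox7 9.12-fold (-3.19 ± 0.67, adjusted p = 0.00142). The folds of Sox17 and Sox7 again rest on the few UMIs of the progenitor gate. These calls leaned on single sums. The Sox17 call was lost without control replicate 1 (-3.62, edgeR adjusted p = 0.0510), control replicate 2 (-3.32, 0.0882) or cKO replicate 2 (-2.61, 0.0930). The Sox7 call was lost without cKO replicate 1 (-3.04, adjusted p = 0.0993) and the Sox18 call without control replicate 2 (-2.54, adjusted p = 0.0662). The highest adjusted p over the alternatives was 0.0930 for Sox17, 0.0993 for Sox7 and 0.0662 for Sox18, and the replicate block gave 3392 genes called against 2118.

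Venous cells, and cells that met both the arterial and the plexus gate, were each compared with arterial cells. Sox7 passed the test in both comparisons and Sox17 and Sox18 did not. These calls alone do not show that the genes differ there. The ratios of Sox7 to Sox17 and to Sox18 did not pass in either comparison (exact permutation tests, adjusted p = 0.382 for both ratios in veins and 0.343 for both in arterial and plexus cells). These tests could not decide the question. Unpaired, 4 against 4 sums allow no p below 0.0286, and a single ratio at that p could not pass adjustment over 21 tests. By pairs of sums, Sox7 to Sox18 was lower in 4 of 4 and Sox7 to Sox17 in 3 of 4 in veins, and both were higher in 4 of 4 in arterial and plexus cells. In venous cells Sox7 read 15.1, 31.9, 36.8 and 17.2 CPM, all below its arterial sums, and it was 2.62-fold lower (log2 -1.39 ± 0.31, edgeR adjusted p = 0.00565). This call was lost without control replicate 1 (-1.07, adjusted p = 0.136, with a range from 1.02e-06 to 0.136 over the alternatives). Sox17 read 105, 270, 126 and 370 CPM and Sox18 142, 283, 80.4 and 276 CPM in venous cells, both overlapping the arterial sums. Their differences were -0.47 (95% interval -1.37 to 0.43, edgeR adjusted p = 0.452) and -0.31 (-1.35 to 0.74, adjusted p = 0.695). Of all genes, 23.9% passed between veins and arteries, 1253 higher and 1364 lower, or 895 and 1733 with library size alone. The replicate block gave 4259 calls against 2617.

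In cells with both the arterial and the plexus gate, Sox7 was at its highest, at 182.1, 173.5, 147.5 and 140.0 CPM, and each of these sums exceeded each arterial sum. It was 2.17-fold higher than in arterial cells (log2 1.12 ± 0.30, edgeR adjusted p = 0.0329), where 5.00% of genes passed, 186 (1.78%) as higher and 337 (3.22%) as lower, or 224 and 267 by DESeq2. The call was lost without control replicate 1 (1.17, adjusted p = 0.253), control replicate 2 (1.07, adjusted p = 0.271) or cKO replicate 1 (1.08, adjusted p = 0.0688), and without the cell that held the most UMIs of each SoxF gene in each sum (1.09, adjusted p = 0.0705), in a range from 0.000196 to 0.271 over the alternatives. The median of all genes was itself -0.11 on the log2 scale in this comparison. Sox17 read 378, 534, 226 and 578 CPM and Sox18 214, 350, 226 and 352 CPM, with differences of 0.38 (95% interval -0.64 to 1.39, edgeR adjusted p = 0.774) and 0.11 (-0.97 to 1.19, adjusted p = 0.961). With the replicate block 1183 genes were called against 523. The plexus gate alone kept only 1 sum, cKO replicate 1, with Sox7 at 69.6 CPM, inside the range of the arterial sums. With cells assigned by priority, Sox7 in the plexus group was 0.75 higher than in arterial cells and did not pass (edgeR, adjusted p = 0.263).

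Set against the arterial and plexus cells, venous cells held 5.78-fold less Sox7 (log2 -2.53 ± 0.33, edgeR adjusted p = 9.60e-06), where 25.3% of genes passed, 13.7% as higher and 11.5% as lower. Sox17 differed by -0.87 (95% interval -1.90 to 0.17, adjusted p = 0.223) and Sox18 by -0.43 (-1.53 to 0.66, adjusted p = 0.613). The order of mean levels over the 7 groups was the same for Sox17 and Sox18, from arterial and plexus cells through arterial, venous, arterial and EHT, EHT, and EHT and progenitor to progenitor cells. For Sox7, venous cells stood after the arterial and EHT cells. Neighbours in these orders whose test did not pass are not shown to differ, although the 4 sums did not overlap for Sox18 between arterial and EHT cells and the EHT gate, or for Sox17 between the EHT gate and EHT and progenitor cells. Venous cells were not tested against arterial and EHT cells.

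Levels also moved with the pool. Over the 12 pairs of replicate 2 and replicate 1 sums of the same genotype outside the progenitor gate, Sox18 was higher in replicate 2 in 12 and Sox17 in 11, with median folds of 1.91 and 1.87. Sox7 was higher in 5 of 12, with a median fold of 0.951. In the progenitor gate the direction was the opposite, with Sox18 folds of 0.258 in the controls and 0.469 in the cKO, and Sox17 folds of 0.676 and 0.369. A pool differs from the other in embryos, library and sequencing, and these cannot be told apart.

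**Figure D2:**
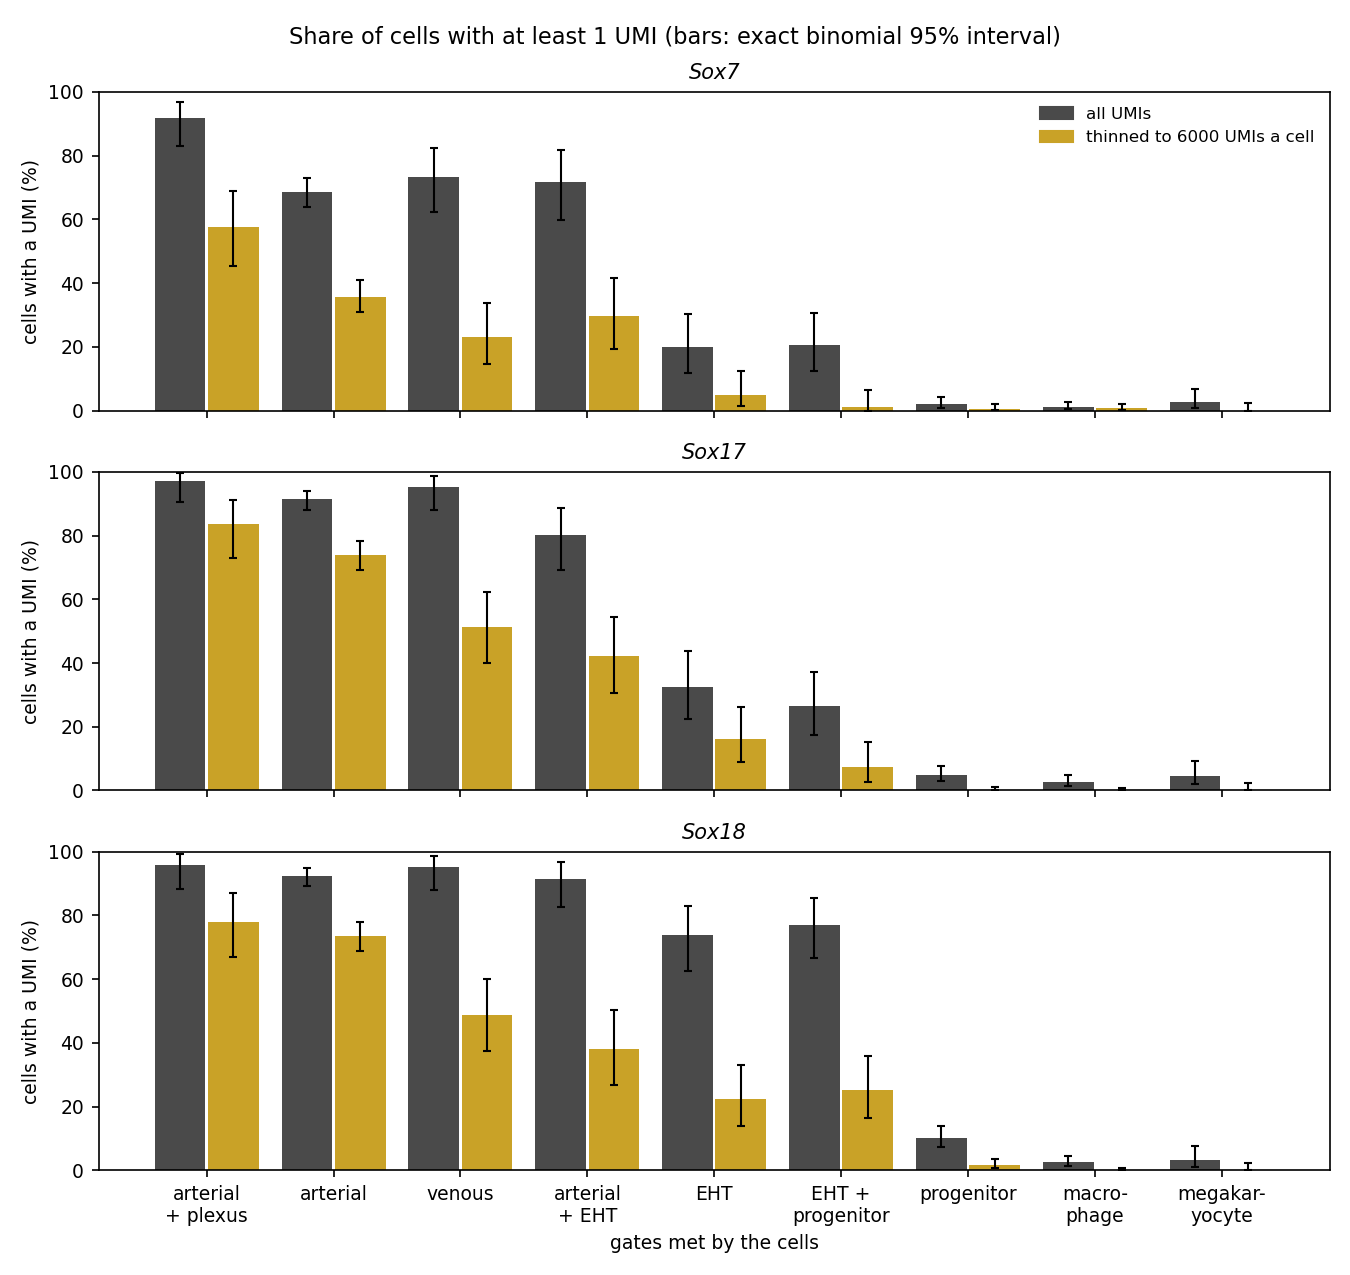
Percent of cells with at least 1 UMI of each SoxF gene, by group of cells, for all UMIs and after each cell was thinned to 6000 UMIs. Bars are shares over all cells of the group and error bars exact binomial 95% intervals, which cover counting error only. Sox18 stays at 73.8% of EHT cells before thinning and 22.5% after it, and the macrophage and megakaryocyte gates give the background.

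Cells differed in depth, from a median of 23383 UMIs in the arterial gate to 74676.5 in the progenitor, 74796.5 in the venous and 87312 in the megakaryocyte gate, so shares of cells with a UMI were also taken after each cell was thinned to 6000 UMIs. In arterial cells, Sox17 was found in 91.4% of cells before and 73.9% after thinning, and Sox18 in 92.4% and 73.7%. In EHT cells Sox17 dropped from 32.5% to 16.3%, Sox18 from 73.8% to 22.5% and Sox7 from 20.0% to 5.00%. Sox18 in the progenitor gate was found in 10.2% of cells (exact 95% interval 7.30 to 13.8) and in 1.66% after thinning (0.612 to 3.58), against 2.57% of macrophages (1.29 to 4.55; median depth 56644 UMIs) and no macrophage after thinning, with an upper bound of 0.864%. The progenitor shares of Sox7, 2.21%, and Sox17, 4.97%, lay within the range of the macrophage and megakaryocyte gates or just above it (1.17% and 2.65% for Sox7, 2.80% and 4.64% for Sox17) and are read as background.

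**Figure D3:**
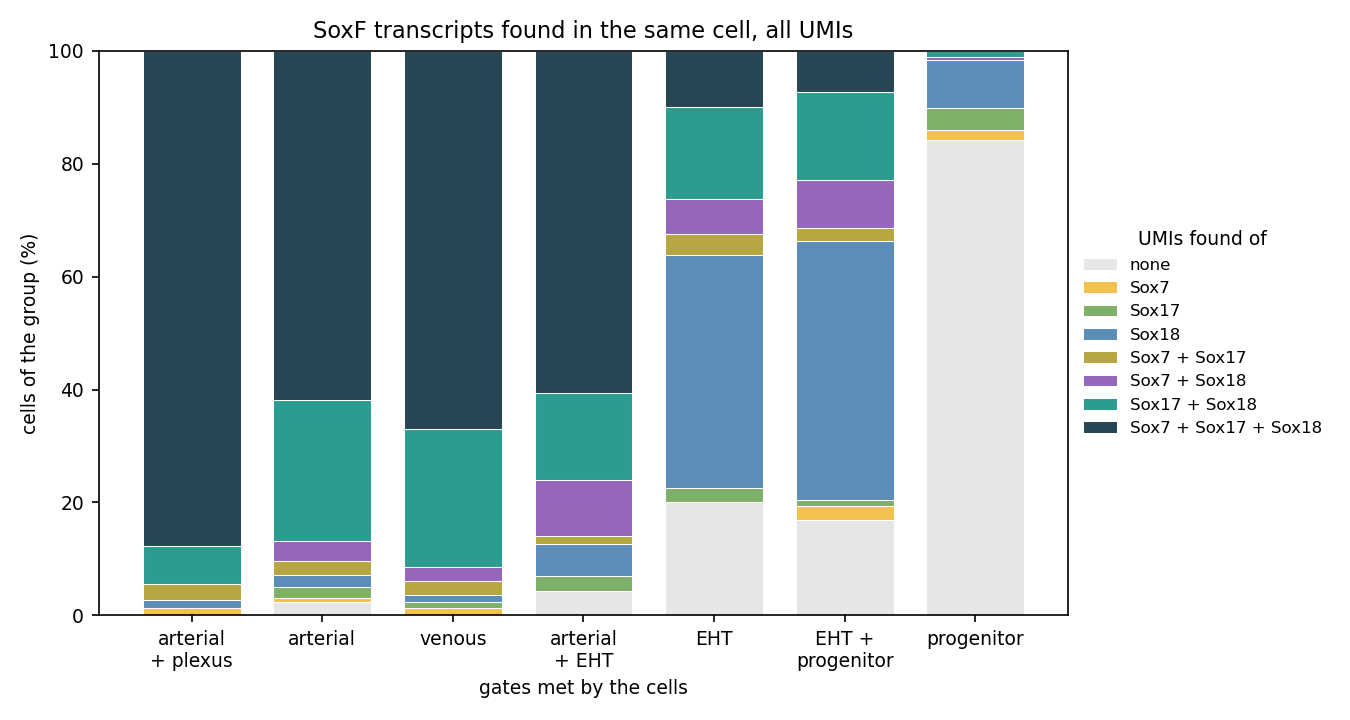
Share of cells by which of the 3 SoxF genes they held, stacked to 100% for each group of cells. All UMIs are used, so the shares follow depth as well as level. All 3 genes occur together in 61.8% of arterial cells, whereas Sox18 without Sox7 and Sox17 is the pattern of 41.3% of EHT cells. After thinning, these shares were 21.6% of arterial and 18.8% of EHT cells.

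With all UMIs counted, most cells of the endothelial groups held all 3 genes, and few EHT cells did. All 3 were detected in 64 of 73 arterial and plexus cells (87.7%), in 244 of 395 arterial cells (61.8%), in 55 of 82 venous cells (67.1%) and in 43 of 71 arterial and EHT cells (60.6%). In the EHT gate this held for 8 of 80 cells (10.0%), and Sox18 was the only SoxF gene in 33 of 80 (41.3%). Among EHT and progenitor cells, 38 of 83 (45.8%) held Sox18 alone, against 8 of 395 arterial cells (2.03%). No progenitor cell of 362 held all 3. These are shares of cells and follow depth as well as level. After thinning, all 3 were found in 35.6% of arterial and plexus, 21.6% of arterial, 6.10% of venous and 8.45% of arterial and EHT cells. None of these groups then held all 3 genes in most of its cells, and the EHT share was 0%. Sox18 alone was then found in 18.8% of EHT and 24.1% of EHT and progenitor cells, against 12.4% of arterial cells. The contrast in Sox18 alone was thus much smaller after thinning.

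The ratio of the genes within a sum was compared as well, in 21 two-sided exact permutation tests that were chosen after the levels were seen. The log2 ratio of Sox7 to Sox18 in the EHT gate differed by -1.75 from that in arterial and EHT cells and by -1.18 from that in arterial cells, and was lower in 4 of 4 pairs of sums each. None of the 21 passed adjustment (adjusted p = 0.300 for the smallest exact p of 0.0286, which is the smallest that 4 against 4 sums allow). A single ratio at that p could not pass adjustment over 21 tests, so no conclusion is drawn from these tests.

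**Figure D4:**
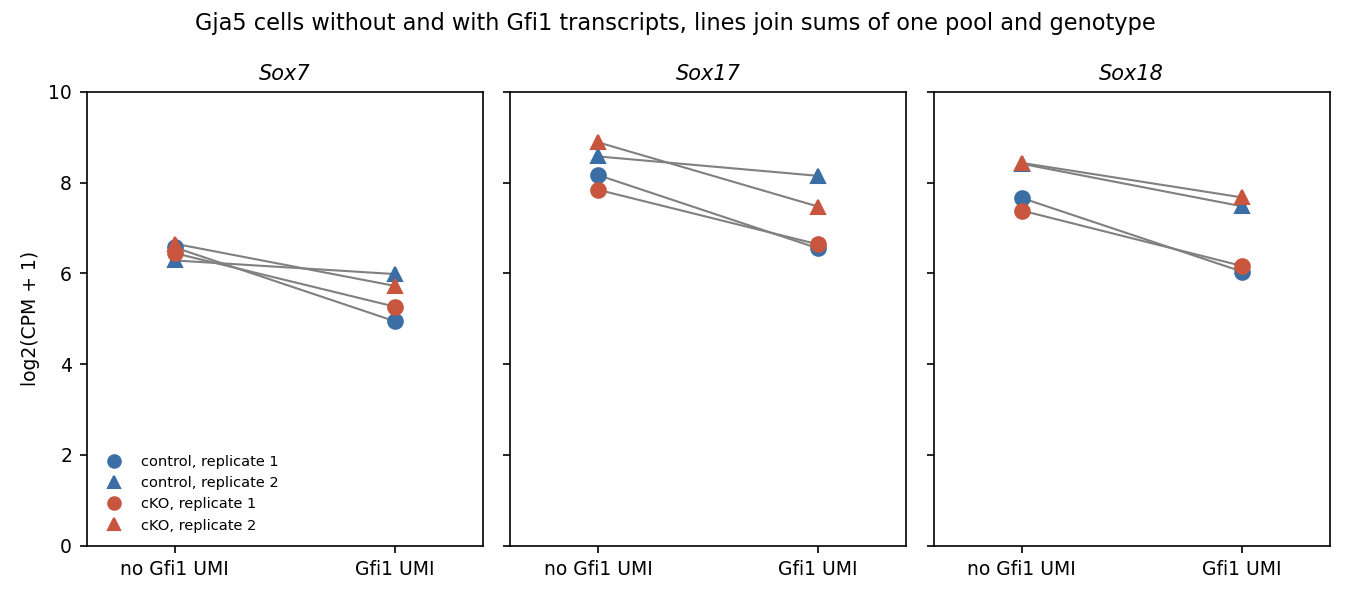
Levels of the SoxF genes as log2(CPM + 1) in Gja5 cells without and with Gfi1 UMIs, 1 line per genotype and replicate. Each line falls towards the cells with Gfi1 in each panel, and the Sox7 groups do not overlap.

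Gfi1, a transcriptional repressor that acts in the loss of endothelial identity, was used to split the cells that held Gja5. With Gfi1, 111 Gja5 cells had Sox7 levels of 29.9, 62.4, 37.6 and 51.9 CPM, and without it 454 cells had 94.3, 77.1, 86.3 and 99.9 CPM. The groups did not overlap, and Sox7 was 1.97-fold lower with Gfi1 (log2 -0.98 ± 0.23, edgeR adjusted p = 0.0147), where 18.4% of genes passed, 7.61% as higher and 10.8% as lower. That call was lost without control replicate 1 (-0.66, adjusted p = 0.154), without cKO replicate 1 (-0.90, adjusted p = 0.0581), when Ptprc cells were left out (-0.83, adjusted p = 0.0527) and when plexus cells were left out (-0.69, adjusted p = 0.0695), with a range over the alternatives from 2.23e-05 to 0.154.

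Sox17 read 92.9, 283, 98.8 and 177 CPM with Gfi1 and 286, 382, 229 and 474 CPM without it, and Sox18 64.9, 178, 70.9 and 204 CPM with Gfi1 and 202, 341, 166 and 346 CPM without. In each genotype and replicate the cells with Gfi1 had the lower level of both genes, although the ranges overlapped. The differences were -1.08 for Sox17 (95% interval -2.01 to -0.16, edgeR adjusted p = 0.103) and -1.03 for Sox18 (-2.16 to 0.10, adjusted p = 0.190). With the replicate block both passed, Sox17 at -1.14 (adjusted p = 0.00131) and Sox18 at -1.10 (adjusted p = 2.57e-05), and 3615 genes were called against 1879. Without control replicate 2, Sox17 passed as well (-1.47, adjusted p = 0.0305). Over the alternatives the adjusted p ran from 8.03e-08 to 0.242 for Sox17 and from 5.82e-07 to 0.362 for Sox18. The Gja5 cells with Gfi1 also held less of the gate gene Gja5 (389 against 963 CPM) and less Cdh5 (585 against 1041 CPM). They were deeper, with a median of 43281 against 24256 UMIs. More of them held Runx1 (87.4% against 15.6% of cells), Ptprc (18.0% against 2.20%) and Mpo (17.1% against 5.73%). The part of these features in the differences was tested only for Ptprc, as above.

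Over all cells, Sox18 was found in 237 of the 310 cells with Gfi1 (76.5%) and in 34.9% of the 1829 others. For Sox17 the shares were 44.5% and 33.4%, and for Sox7 36.5% and 25.3%. In replicate 1 the order of these 2 genes was the opposite in both genotypes. Sox17 was there in 42.7% of control cells with Gfi1 against 55.6% of the others, and in 53.1% against 59.7% in the cKO. For Sox7 the replicate 1 shares were 37.3% against 42.1% in the controls and 42.0% against 50.6% in the cKO. Only Sox18 was more frequent with Gfi1 in each genotype and replicate when all cells were counted. Among Gja5 cells its shares were alike, 93.7% with Gfi1 and 92.5% without. The cells were then split by Ptprc, the pan-leukocyte gene CD45. Without Ptprc, Sox18 was less frequent with Gfi1 in replicate 1, at 76.9% against 80.8% in the controls and 78.0% against 80.4% in the cKO. In replicate 2 it was more frequent, at 83.7% against 46.1% and 88.4% against 54.9%. Cells with Ptprc were also taken alone. Of 129 such cells with Gfi1, 89 held Sox18, against 63 of 904 without Gfi1 (6.97%). The share with Gfi1 was 72.2% and 57.7% in the controls of replicates 1 and 2 and 80.6% and 63.9% in the cKO, and each lay above the highest share without Gfi1, 14.3%. Sox17 was found in 29.5% and Sox7 in 24.8% of the Ptprc cells with Gfi1, against 5.53% and 2.77% of those without it. The macrophage gate, with Ptprc in 93.5% of cells and Gfi1 in 0.467%, falls mainly among the Ptprc cells without Gfi1. The part of cell type in these shares was not tested.

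**Figure D5:**
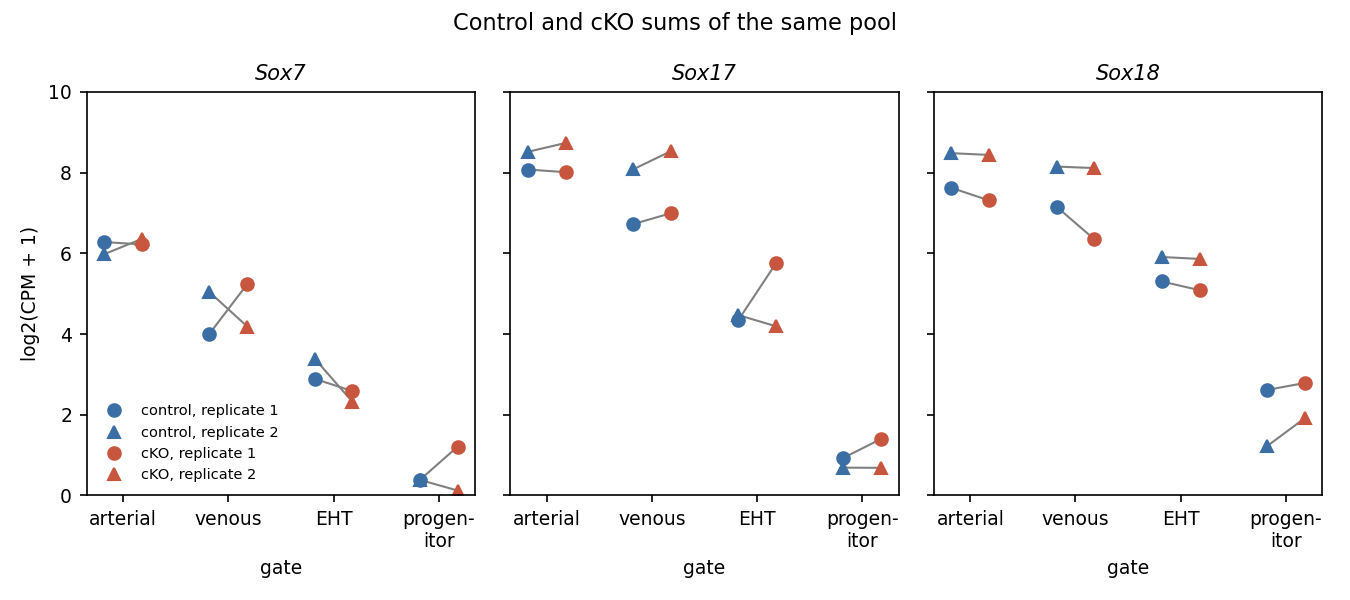
Levels of the SoxF genes as log2(CPM + 1) in control and cKO sums of the arterial, venous, EHT and progenitor gates. Each line joins the control and cKO sums of 1 replicate pool. The lines go up in some pools and down in others, and no difference passed the test.

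The study's own comparison, cKO against control, was then made within each gate. No SoxF gene differed past the threshold in any gate (edgeR, adjusted p = 1 for each). The arterial differences, cKO minus control, were 0.11 for Sox17 (95% interval -1.14 to 1.36), 0.16 for Sox7 (-0.71 to 1.02) and -0.13 for Sox18 (-1.59 to 1.33). In the EHT gate they were 0.74 for Sox17 (-0.89 to 2.36), -0.90 for Sox7 (-2.47 to 0.67) and -0.11 for Sox18 (-1.79 to 1.56). The intervals are wide and do not show that the genotypes were alike.

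In venous cells the genotype differences were 0.41 for Sox17 (-0.88 to 1.70), 0.30 for Sox7 (-0.72 to 1.32) and -0.26 for Sox18 (-1.76 to 1.24). In the progenitor gate, where levels were low, they were 0.30 (-2.32 to 2.92), 0.26 (-2.09 to 2.61) and 0.52 (-1.57 to 2.60). The genotype difference in the EHT gate minus that in the arterial gate was 0.63 for Sox17 (-1.42 to 2.68), -1.06 for Sox7 (-2.85 to 0.73) and 0.02 for Sox18 (-2.22 to 2.25), with an adjusted p of 1 in edgeR. Of all genes, edgeR called 0 in each gate (0.00%). An unadjusted p under 0.05 was found for 107 genes in the arterial, 214 in the venous, 461 in the EHT and 69 in the progenitor gate, and for 307 in the comparison of differences, and DESeq2 called 0, 0, 6, 1 and 0 genes in the same order. The highest Sox17 level in the EHT gate, that of cKO replicate 1, came largely from 1 cell with 41 of the 53 Sox17 UMIs.

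The genes most like each SoxF gene over the 17 sums of single gates, by Pearson's r of log2 CPM among 11265 genes, are given as a description, since these sums share pools and depth. For Sox17 they were Npdc1 (r = 0.995), Exoc3l4 (0.993), Plvap (0.989), Cd151 (0.985) and Crip2 (0.985). Sox7 was most like Uaca (0.986), Cttn (0.985), Sept7 (0.982), Aplp2 (0.981) and Ece1 (0.979). Sox18 was most like Plvap (0.981), which encodes a protein of endothelial pores, then Laptm4b (0.980), Ndn (0.979), Marcksl1 (0.979) and Ecscr (0.977). Between the members r was 0.964 for Sox17 and Sox18, 0.953 for Sox7 and Sox17, and 0.910 for Sox7 and Sox18.

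Endothelial genes linked to SoxF factors were read in the same comparisons. Of 18 tested, 16 fell and 1 rose from the arterial to the EHT gate, against 20.3% of all genes called lower and 19.5% higher, with a median of -3.78 against -0.01 for all genes. Among those that fell were the Notch ligand gene Dll4 (-5.23 ± 0.33, edgeR adjusted p = 2.92e-07), the Notch receptor gene Notch4 (-4.88 ± 0.38) and the junction gene Cdh5 (-2.48 ± 0.47, adjusted p = 0.00166). Mef2c, a transcription factor, rose by 0.74 ± 0.21 (edgeR adjusted p = 0.0127), a call that was lost without control replicate 1 (0.45, adjusted p = 0.183), without cKO replicate 1 (0.54, adjusted p = 0.150) and in EHT cells without Mpo (0.66, adjusted p = 0.0536). Rbpj, the DNA-binding partner of Notch, differed by 0.32 and did not pass (adjusted p = 0.491).

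From the EHT to the progenitor gate, 9 of the 18 fell, against 11.8% of all genes, with a median of -2.57 against 0 for all genes. The 1 that rose was Mef2c (0.68 ± 0.21, edgeR adjusted p = 0.0305), and its call was lost without control replicate 2 (0.44, 0.297), without cKO replicate 2 (0.55, 0.230), with stricter gates (0.45, 0.171), with only these gates in the fit (0.68, 0.0994) and with library size only (0.59, 0.0618). The tight junction gene Cldn5 fell by 5.57 (SE 0.39, edgeR adjusted p = 1.59e-06). In Gja5 cells with Gfi1, 15 of 18 fell and 0 rose, against 10.8% and 7.61% of all genes, with a median of -1.11 against -0.01. The guidance receptor gene Robo4 was among those that fell (-1.88 ± 0.24, edgeR adjusted p = 0.000792). From arterial to arterial and EHT cells 10 of 18 fell, against 6.51% of all genes, with the Notch ligand gene Jag1 at -1.65 ± 0.28 (adjusted p = 0.000668), while Cdh5 at -0.81 did not pass (adjusted p = 0.200).

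In venous cells 9 of the 18 were lower and 2 higher than in arterial cells, against 12.5% and 11.4% of all genes, with a median of -1.16 against -0.05. Those 2 were Flt4, the receptor of lymphatic growth factors (1.29 ± 0.23, edgeR adjusted p = 0.00133), and Mef2c (0.94 ± 0.21, adjusted p = 0.00512), and Dll4 was lower (-2.95 ± 0.25). No gene of the list was called between genotypes in any gate by edgeR.

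The hematopoietic factors include Runx1 and its partners. Of 13 tested, 7 rose and 1 fell from the arterial to the EHT gate, against 19.5% of all genes called higher and 20.3% lower, with a median of 0.86 against -0.01 for all genes. Gfi1b, a repressor paired with Gfi1, was higher by 5.02 ± 0.59 and Spi1, the myeloid factor PU.1, by 4.87 ± 0.42, while Mecom, a factor of stem cells and arterial endothelium, fell by 2.05 (SE 0.47, edgeR adjusted p = 0.00411), a call that was lost with cells assigned by priority (-1.12, adjusted p = 0.0755). From the EHT to the progenitor gate 0 rose and 6 fell, against 9.17% and 11.8% of all genes. In arterial and EHT cells 5 of 13 were higher than in arterial cells, against 4.92% of all genes, among them the stem cell factor Hlf (3.03 ± 0.49, edgeR adjusted p = 0.000917), whose call was lost without cKO replicate 1 (2.65, adjusted p = 0.0617).

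Some Ets factors act with SoxF proteins at endothelial enhancers, and a list of 8 Ets factors was read here. From the arterial to the EHT gate 3 fell and 2 rose, with Ets1 at -2.55 ± 0.30, Fli1 at -0.65 ± 0.21 and Elf1 at 0.93 ± 0.27, where 20.3% of all genes were called lower and 19.5% higher. The Fli1 call was lost without control replicate 2 (-0.49, edgeR adjusted p = 0.239), without cKO replicate 1 (-0.52, 0.117), with stricter gates (-0.35, 0.174), with cells assigned by priority (-0.29, 0.233) and in EHT cells without Mpo (-0.65, 0.0850). The Elf1 call was lost without control replicate 1 (0.78, edgeR adjusted p = 0.145) or control replicate 2 (1.03, 0.0752). From the EHT to the progenitor gate 2 fell, Erg (-1.74 ± 0.31) and Ets1 (-1.79 ± 0.33), and 0 rose, a share near the 20.9% of all genes called. Of 16 other Sox genes 6 passed the filter on low counts, and 5 of these fell from the arterial to the EHT gate, with Sox6 at -2.96 ± 0.31 and Sox4 at -1.25 ± 0.20, whereas Sox12 at 0.31 did not pass (edgeR adjusted p = 0.434). In venous cells Sox11 was higher than in arterial cells (1.51 ± 0.43, edgeR adjusted p = 0.0240), a call that was lost in 5 of 16 alternatives with an adjusted p of up to 0.146, and Sox6 was lower (-5.09 ± 0.38).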

How the data were processed

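Single-cell RNA-seq counts came from 2 hashtagged pools, each with control and cKO cells. The authors deposited UMI counts per gene and cell, made with Cell Ranger 5.0.1 on mm10, and a table of hashtag calls. Per their methods, cells were hashtag singlets that had over 1800 genes and over 6000 UMIs, with mitochondrial UMIs under 5%. Of the 2139 deposited cells, 2038 met these limits when recomputed, and all were kept. No doublet caller was run here, and hashtags remove only doublets between hashtags.

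Counts were summed per gate, genotype and replicate (at least 5 cells), which gave 16 sums for the gates, since the plexus gate had only 1 such sum. Sums were fitted with the quasi-likelihood test of edgeR 4.0.16 (filterByExpr, TMM, robust) with limma 3.58.1 in R 4.3.3, with adjustment over all genes and a threshold of 0.05, after a test on simulated data. DESeq2 1.42.0 was an alternative. Shares carry exact (Clopper-Pearson) 95% intervals, which like all intervals on counts cover counting error only. Python 3.11.15, numpy 2.4.6, pandas 2.3.3, scipy 1.17.1 and matplotlib 3.10.9 were used. Sums held 398858 to 11590378 UMIs.

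Genes named are the SoxF genes, Nupr1, members of 4 fixed lists and, for each SoxF gene, the 5 most alike. The members and lists were chosen with earlier results of these data known. The genotypes of a replicate share a pool, and their deviations from the genotype means correlated (r = 0.321 in the EHT, 0.427 in the arterial, 0.449 in the progenitor and 0.313 in the venous gate). The authors tested cells by the Wilcoxon test after integration. Here cells are not replicates, so sums were tested.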

Additional observations from a re-analysis of the deposited data

Results flagged for a closer look

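Among the 30 groups of 4 sums of the SoxF genes, 1 held a sum far from the others by Dixon's test at the 95% level, while chance alone gives about 1.5 such groups of 30. It was Sox17 in the EHT gate, where cKO replicate 1 stood at 53.0 CPM and the other 3 sums at 17.3, 19.2 and 21.2 CPM. The gap over the range was 0.891, above the critical value for 4 values. In that sum 1 cell held 41 of 53 Sox17 UMIs (77.4%).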

How the results depend on the processing

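The falls of the 3 SoxF genes from the arterial to the EHT gate and from the EHT to the progenitor gate kept their direction and passed under each of the 16 alternatives run. No plexus gate contrast could be fitted except with cells assigned by priority, where Sox7 was 0.75 higher than in arterial cells (edgeR, adjusted p = 0.263). Alternatives that compare combinations of gates or ratios, that scale by library size only, that leave out Mpo cells of the EHT gate or plexus cells, or that leave out the cell highest in each SoxF gene were chosen after seeing the data. Low counts limit the progenitor gate, whose cells were deep but held few Sox7 and Sox17 UMIs. Scaling by library size only moved the median of all genes past 0.1 in 3 comparisons, to -0.15 for EHT minus arterial, -0.18 for venous minus arterial and -0.11 for progenitor minus EHT and progenitor cells. For arterial and plexus minus arterial cells it was -0.11 with TMM and with library size only. The causes of the changes below were not tested.

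By setting, the values that moved were these. DESeq2 called 30 genes for EHT and progenitor minus EHT cells, and 6 and 1 between genotypes in the EHT and progenitor gates. EHT cells without Mpo gave a genotype difference of 0.27 for Sox18 and 2422 genes called for EHT minus arterial. For Gfi1 in Gja5 cells, Sox7 was at -0.69 without plexus cells and at -0.83 without Ptprc cells, where 1220 genes were called. With cells assigned by priority, the genotype difference of Sox17 in the EHT gate was -0.89, and the EHT minus arterial difference of genotype differences was -0.996 for Sox17 and -0.16 for Sox18. Mean shares of cells with a UMI became 54.7% for Sox17 and 44.4% for Sox7 in the EHT gate, and 14.2%, 30.3% and 9.67% for Sox17, Sox18 and Sox7 in the progenitor gate.

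With 2 UMIs of each paired gene and 4 of Gja5, Sox17 was at -1.74 for EHT minus arterial and EHT cells and at -2.75 for progenitor minus EHT and progenitor cells, and Sox18 at -0.060 for arterial and plexus minus arterial cells. Genotype differences were -0.92 (Sox17, EHT), -0.030 (Sox17, venous) and -0.12 (Sox7, venous), and -1.05 for Sox17 and -0.21 for Sox18 between the EHT and arterial gates. The Sox17 share in the progenitor gate was 11.3%, and 495 and 726 genes were called for EHT minus arterial and EHT and for arterial and EHT minus arterial cells. The Sox18 difference of genotype differences was -0.00075 with library size only, -0.11 within the stated cell limits and -0.11 without the highest cells.

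With no low-count filter, Sox17 passed at -1.32 (EHT and progenitor minus EHT), -1.09 (Gfi1), -1.13 (arterial and EHT minus arterial) and -0.86 (venous minus arterial and plexus), and Sox18 at -1.24 (EHT minus arterial and EHT), -1.04 (Gfi1) and -1.11 (arterial and EHT minus arterial). Genes called were 152 for EHT and progenitor minus EHT, 868 for arterial and plexus minus arterial, and 158, 24, 30 and 19 between genotypes in the EHT, arterial, progenitor and venous gates, with 75 for the difference of genotype differences. The test of Nupr1 passed there in the EHT gate (-3.63, adjusted p = 6.82e-08) and the progenitor gate (-3.78, adjusted p = 2.06e-09).

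With the replicate block, by which the genotypes of a pool are paired, Sox17 passed at -1.14 (Gfi1) and -1.23 (arterial and EHT minus arterial), and Sox18 at -1.26 (EHT minus arterial and EHT), -1.10 (Gfi1) and -1.16 (arterial and EHT minus arterial). It changed no other call of a SoxF gene. Genes called were 1738, 5, 3615, 2503, 1183, 3655, 3392 and 4259 for EHT minus arterial and EHT, EHT and progenitor minus EHT, Gfi1, arterial and EHT minus arterial, arterial and plexus minus arterial, progenitor minus EHT, progenitor minus EHT and progenitor, and venous minus arterial, and 1, 1 and 3 between genotypes in the EHT, arterial and progenitor gates.

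After thinning, mean shares over the sums were 16.2%, 73.4%, 0% and 55.5% for Sox17 in the EHT, arterial, progenitor and venous gates, 21.8%, 72.9%, 1.50% and 56.2% for Sox18, and 4.89%, 35.7% and 21.8% for Sox7 in the EHT, arterial and venous gates. Without the cell highest in each SoxF gene, genotype differences were -0.098 for Sox17 and 0.18 for Sox7 in the EHT gate, -0.030 for Sox7 in the progenitor gate and -0.20 for Sox17 between the EHT and arterial gates, Sox7 was at 1.09 for arterial and plexus minus arterial cells, and 314 and 1 genes were called for that comparison and between genotypes in the EHT gate.

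Leaving out 1 genotype of 1 replicate at a time gave these lowest and highest values. Sox17 ran from -3.16 to -1.80 for EHT minus arterial and EHT, from -1.47 to -0.87 for Gfi1 and from -4.08 to -2.61 for progenitor minus EHT and progenitor. Sox18 ran from -4.12 to -2.54 for the last of these. Sox7 ran from -1.35 to -0.66 for Gfi1, from 1.07 to 1.21 for arterial and plexus minus arterial, from -3.29 to -2.87 for progenitor minus EHT and progenitor and from -1.78 to -1.07 for venous minus arterial. Genotype differences of Sox17 ran from -0.17 to 1.35 (EHT), -0.34 to 0.45 (arterial), -0.16 to 1.08 (progenitor), -0.63 to 1.27 (venous) and -0.61 to 1.69 (EHT against arterial). Those of Sox18 ran from -0.62 to 0.29, -0.85 to 0.39, -0.33 to 1.48, -1.47 to 0.46 and -0.096 to 0.22 in that order, and those of Sox7 from -1.45 to 1.85 (progenitor) and -0.33 to 0.92 (venous). Genes called ran from 2520 to 3403 (EHT minus arterial), 132 to 560 (EHT minus arterial and EHT), 0 to 2 (EHT and progenitor minus EHT), 470 to 1329 (Gfi1), 164 to 700 (arterial and EHT minus arterial), 55 to 237 (arterial and plexus minus arterial), 873 to 1501 (progenitor minus EHT), 735 to 1361 (progenitor minus EHT and progenitor), 1029 to 1400 (venous minus arterial) and 1311 to 1800 (venous minus arterial and plexus). Between genotypes they ran from 0 to 26 (EHT), 0 to 4 (arterial), 0 to 8 (progenitor), 0 to 2 (venous) and 0 to 5 (EHT against arterial). Log2 ratios ran from -0.21 to 0.18 (Sox17 to Sox18, Gfi1), -0.37 to 0.070 (Sox17 to Sox18, arterial and EHT minus arterial), -0.37 to 0.63 (Sox7 to Sox17, EHT minus arterial), -0.49 to 1.50 (Sox7 to Sox17, EHT and progenitor minus EHT), -0.93 to 0.087 (Sox7 to Sox18, EHT and progenitor minus EHT) and -0.057 to 0.21 (Sox7 to Sox18, Gfi1).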
